A study of Homo sapiens with 12 samples.

Results

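The knockdown response that differed between the lines was taken as the contrast (HCCLM3 si-circASH2 minus si-NC) minus (Huh7 si-circASH2 minus si-NC) in log2 expression, over all 12 libraries. Its members were the genes measured in both lines, with a mean of at least 1 count per 1e+06 counts (CPM) in a group of each line. They numbered 12051 of 16946 features tested and 23583 features in the deposited table, and 833 of them carried an assembly identifier in place of a gene symbol. Huh7 and HCCLM3 are established human hepatocellular carcinoma (HCC) lines. Each line had 3 libraries labelled si-circASH2 and 3 labelled si-NC, the reference of its line, made from total RNA with an mRNA library kit. circASH2 is a circular RNA named after the ASH2L gene, and its own level was not measured in the gene table used here. The labels do not say whether the 3 libraries of each group are separate cultures. The p-values below therefore measure only how far these libraries spread, and that spread may be technical. The sources used here give no siRNA sequence, dose or time after transfection.

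The contrast asks for which genes the fold change of the knockdown was not the same in both lines, by responding in a single line, by responding more strongly in 1 line, or by moving in opposite directions. Huh7 is known as a differentiated line that makes many plasma proteins of the hepatocyte, and HCCLM3 as a line selected for metastasis. In the cell cycle, E2F factors drive genes of DNA replication and the later FOXM1 and MYB-MuvB program drives genes of mitosis, while CDK inhibitors such as p21 hold both back. The ERK kinase pathway runs downstream of growth factor receptors and integrins, and it induces its own inhibitors of the DUSP, SPRY and SPRED families.

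Library totals lay between 29006781 and 30858895 counts, and mitochondrial genes took 6.94% to 10.3% of them. Summed hepatocyte markers stood at 33025 to 35849 CPM in the Huh7 libraries and at 189 to 199 CPM in the HCCLM3 libraries, where AFP was at 3.35 CPM in the si-NC mean and 6 of the 10 markers reached 1 CPM. The HCCLM3 libraries are therefore described by their label, not by hepatocyte markers. Of the markers of other cell types, FAP (fibroblast), TIE1 and ERG (endothelium) and CD3E and MS4A1 (leukocyte) were at 0 in every library. The leukocyte sum was 383 to 419 CPM in Huh7 si-NC and 338 to 365 CPM in si-circASH2, and in HCCLM3 it was 144 to 165 CPM and 171 to 208 CPM. The fibroblast sum was higher with si-circASH2 in both lines: Huh7 had 37.9 to 43.3 CPM in si-NC and 59.9 to 61.1 CPM in si-circASH2, HCCLM3 35.9 to 38.4 CPM and 49.6 to 53.9 CPM. The endothelial sum was 24.1 to 27.7 CPM and 23.8 to 24.5 CPM in Huh7, and 26.2 to 27.9 CPM and 20.0 to 22.2 CPM in HCCLM3. Whether these shifts have a part in any result was not tested.

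Promoters of 4 mitosis genes and 4 DNA replication genes are shown first, because 25 of 25 and 23 of 25 genes of these groups differed between the lines in 1 direction. They were picked for holding the site in the stretch shown, and then by size of difference. The presence of the site in them was thus fixed in advance. In the mitosis promoters the capitals mark TTTGAA or its reverse complement, the core of the cell cycle homology region that the MuvB complex recognises. Each stretch runs from 150 bases before to 30 bases after the RefSeq start site (build GRCh38.p14), written 5′ to 3′ on the strand of the gene. In MAD2L1, and in MCM2 further below, the capitals lie after the start site.
ASPM, chr1:197146640-197146819, minus strand: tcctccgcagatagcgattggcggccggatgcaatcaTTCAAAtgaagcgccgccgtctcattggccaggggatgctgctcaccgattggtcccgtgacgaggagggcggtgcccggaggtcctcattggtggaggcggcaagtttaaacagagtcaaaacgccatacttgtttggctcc
KIF23, chr15:69414199-69414378, plus strand: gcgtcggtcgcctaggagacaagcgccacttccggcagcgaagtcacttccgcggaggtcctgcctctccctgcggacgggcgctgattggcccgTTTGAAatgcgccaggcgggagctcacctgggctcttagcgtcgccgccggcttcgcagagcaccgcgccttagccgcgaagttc
MAD2L1, chr4:120066819-120066998, minus strand: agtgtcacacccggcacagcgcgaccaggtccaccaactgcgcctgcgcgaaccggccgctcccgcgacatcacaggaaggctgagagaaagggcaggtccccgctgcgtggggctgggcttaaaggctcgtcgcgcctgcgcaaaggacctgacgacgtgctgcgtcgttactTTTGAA
CCNB2, chr15:59104996-59105175, plus strand: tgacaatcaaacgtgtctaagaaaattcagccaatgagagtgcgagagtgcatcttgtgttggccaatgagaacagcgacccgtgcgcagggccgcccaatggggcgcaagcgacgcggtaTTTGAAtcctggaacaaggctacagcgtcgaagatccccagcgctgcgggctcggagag
In the DNA replication promoters the capitals mark an E2F site, searched on both strands as TTTCCCGC, TTTGGCGC, TTTCGCGC or TTTGCCGC, and sites that overlap merge into 1 run of capitals.
E2F1, chr20:33686356-33686535, minus strand: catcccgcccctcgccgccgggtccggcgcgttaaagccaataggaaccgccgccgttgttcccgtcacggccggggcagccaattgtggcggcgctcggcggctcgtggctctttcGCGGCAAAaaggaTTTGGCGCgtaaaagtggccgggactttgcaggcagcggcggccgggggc
MCM2, chr3:127598261-127598440, plus strand: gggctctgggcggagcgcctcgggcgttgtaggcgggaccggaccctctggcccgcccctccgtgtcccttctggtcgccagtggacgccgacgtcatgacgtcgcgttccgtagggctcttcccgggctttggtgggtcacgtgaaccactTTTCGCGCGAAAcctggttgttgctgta
CDT1, chr16:88803639-88803818, plus strand: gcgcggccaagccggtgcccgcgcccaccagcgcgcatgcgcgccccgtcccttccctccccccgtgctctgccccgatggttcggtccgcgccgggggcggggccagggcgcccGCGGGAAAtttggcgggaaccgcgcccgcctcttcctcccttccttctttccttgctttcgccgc
TYMS, chr18:657503-657682, plus strand: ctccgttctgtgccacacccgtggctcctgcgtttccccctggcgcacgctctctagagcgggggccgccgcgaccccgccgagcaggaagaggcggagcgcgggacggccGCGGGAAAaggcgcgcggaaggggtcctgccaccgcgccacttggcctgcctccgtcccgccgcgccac

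The response differed between the lines for 3305 members (edgeR's quasi-likelihood test, Benjamini-Hochberg adjusted p under 0.05), which is 27.4% of the members. Over all features tested the share was 20.9%. The change was higher in HCCLM3 for 1530 members, or 12.7%, and higher in Huh7 for 1775, or 14.7%. Few of the differences were large: 181 members, 1.50%, passed with a difference over 1 on the log2 scale, and 133 of these were higher in Huh7. The median absolute difference was 0.17 over all members and 0.37 over the differing ones. Each line responded broadly. In Huh7 2408 members rose (20.0%) and 2412 fell (20.0%), and in HCCLM3 2251 rose (18.7%) and 2391 fell (19.8%). The median absolute log2 fold change was 0.15 in Huh7 and 0.14 in HCCLM3. Across members, which are not independent replicates, the fold changes of the lines had a Pearson correlation of 0.28, and the lines share no libraries. At the limit of membership, SLC2A3 entered with 1.0 CPM and LCAT stayed out with 0.999 CPM.

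The differing members fell into 4 kinds by their calls in each line. For 2221 of them, 67.2% of those that differed, the change was called in a single line. Of these, 595 rose and 566 fell in Huh7, and 498 rose and 562 fell in HCCLM3. Another 559, 4.64% of all members and 16.9% of those that differed, moved in opposite directions, 308 with Huh7 higher and 251 with HCCLM3 higher. With limma on log2(FPKM + 0.1) this count was 352, and on log2(FPKM + 1) with all features above 0 it was 331. A further 392 moved the same way in both lines by different amounts, and 133 differed between the lines while passing in neither. Against these stood 1867 members called in the same direction in both lines, of which 1475 had no difference called. A difference of log2 fold changes can depend on the scale: for 145 of the 3305 (4.39%) the change in CPM differed between the lines the other way, and 103 of these were among the 392 that moved in the same direction.

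**Figure D1:**
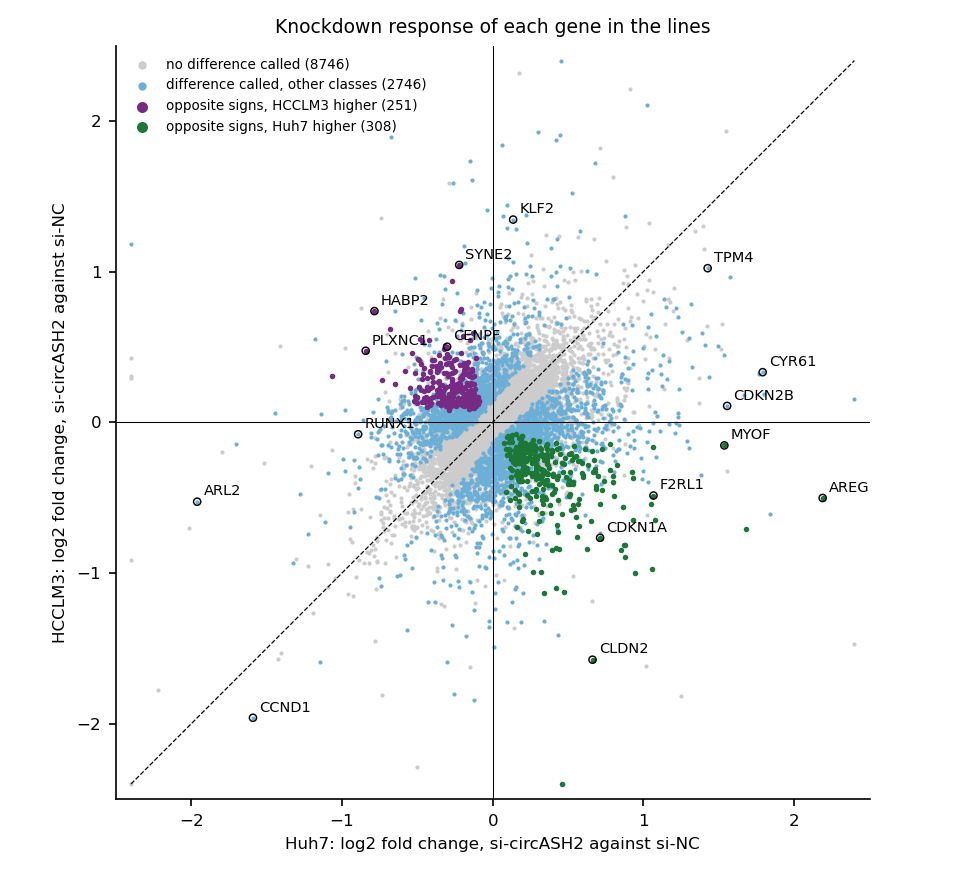
Each point is 1 of the 12051 members. The axes give its log2 fold change, si-circASH2 against si-NC, in Huh7 (horizontal) and HCCLM3 (vertical), the dashed line marks equal responses, and 11 members beyond 2.4 are drawn at that limit. The 251 members in purple fell in Huh7 and rose in HCCLM3, the 308 in green did the reverse, and TPM4 and CCND1 lie near the dashed line.

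Principal components of the members' log2 CPM gave the same picture per library. The first, with 90.8% of the variance, separated the lines. The second, with 2.87%, put the 3 si-circASH2 libraries of each line on 1 side and its si-NC libraries on the other. The third, with 1.71%, separated the treatments with opposite sign in the lines: Huh7 si-NC libraries lay between 9.15 and 12.6 and Huh7 si-circASH2 between -11.9 and -9.70, while HCCLM3 si-NC lay between -10.9 and -8.24 and HCCLM3 si-circASH2 between 6.76 and 13. No library crossed to the other side of its group on that component.

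Among members that moved in opposite directions and reached 5 CPM in a group of each line, the 6 with the largest difference on each side are described first. With Huh7 higher these were AREG, CLDN2, ALS2CL, MYOF, CIDEC and F2RL1, which rose in Huh7 and fell in HCCLM3. AREG encodes amphiregulin, a ligand of the EGF receptor (chr4:74445134-74455009, plus strand, GENCODE 29 on GRCh38). It stood at 2.36, 3.17 and 3.61 CPM in the Huh7 si-NC libraries and at 12.3, 15.6 and 13.7 CPM with si-circASH2, and in HCCLM3 at 32.1, 32.7 and 29.9 CPM against 22.4, 22.9 and 21.4 CPM. The treatments did not overlap in either line, and the lines moved toward each other. The log2 fold change was 2.19 ± 0.12 (SE) in Huh7 and -0.50 ± 0.09 in HCCLM3, a difference of -2.69 ± 0.15 (edgeR adjusted p = 5.6e-12).

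CLDN2, the pore-forming tight junction protein claudin 2 (chrX:106900164-106930861), rose from 8.05 ± 0.96 to 12.7 ± 0.51 CPM (SD, n = 3) in Huh7 and fell from 13.4 ± 1.03 to 4.51 ± 0.41 CPM in HCCLM3. The line with more CLDN2 in si-NC was thus the line with less of it in si-circASH2, and the difference was -2.24 ± 0.15 on the log2 scale (edgeR adjusted p = 2.9e-10). MYOF, the membrane repair protein myoferlin, was at 9.28, 9.75 and 10.4 CPM in Huh7 si-NC and at 27.5, 30.8 and 27.1 CPM with si-circASH2. In HCCLM3, where it was far higher, it went from 422, 448 and 413 CPM to 389, 393 and 372 CPM. The Huh7 rise was 1.54 ± 0.06 and the HCCLM3 fall only -0.15 ± 0.04, so most of its difference of -1.69 lay in Huh7. F2RL1, which encodes the protease-activated receptor PAR2, rose in Huh7 from 18.6, 18.2 and 16.1 CPM to 32.8, 39.2 and 38.8 CPM and fell in HCCLM3 from 198, 203 and 189 CPM to 146, 136 and 139 CPM. CIDEC, a lipid droplet protein, and ALS2CL completed the group with differences of -1.59 and -1.69.

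With HCCLM3 higher, the named genes fell in Huh7 and rose in HCCLM3. HABP2, a plasma serine protease (chr10:113550837-113589602), went from 18.4, 21.5 and 19.0 CPM to 11.8, 11.4 and 10.9 CPM in Huh7 and from 7.0, 7.39 and 7.39 CPM to 12.7, 10.9 and 12.7 CPM in HCCLM3. Huh7 was higher in si-NC, the lines overlapped with si-circASH2, and the difference was 1.52 ± 0.13 (edgeR adjusted p = 8.4e-09). SYNE2, which encodes nesprin-2 of the nuclear envelope, was near the same level in both lines at the start, with 29.95, 32.5 and 29.8 CPM in Huh7 si-NC and 28.6, 30.03 and 27.7 CPM in HCCLM3 si-NC. With si-circASH2 it was at 27.3, 26.0 and 25.8 CPM in Huh7 and at 61.2, 62.5 and 54.4 CPM in HCCLM3, so the small Huh7 fall stood against a rise of 1.04 ± 0.06 in HCCLM3. PLXNC1, a semaphorin receptor, SPTSSB, a small subunit of serine palmitoyltransferase, PLEKHG6 and the histone gene HIST1H2AC followed with differences of 1.32, 1.21, 1.02 and 1.01. In each of these 12 genes the si-NC and si-circASH2 libraries did not overlap in either line. They were picked for a call in both lines, so this separation was close to given by the choice. Its share over all members was not counted. Both calls passed in every alternative for 7 of the 12. The HCCLM3 call was lost for MYOF without HCCLM3 si-NC replicate 2 (edgeR adjusted p = 0.066), for PLEKHG6 without any of 4 single HCCLM3 libraries (si-NC replicate 2 or 3, si-circASH2 replicate 1 or 3; 0.052 to 0.074), and for PLXNC1 with limma on log2(FPKM + 1) (adjusted p = 0.081). The Huh7 call was lost for SPTSSB without Huh7 si-NC replicate 1 (edgeR adjusted p = 0.062) and for SYNE2 without Huh7 si-NC replicate 2 (0.058), and for MYOF, PLEKHG6, SPTSSB and SYNE2 the same call was also lost with limma on FPKM.

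**Figure D2:**
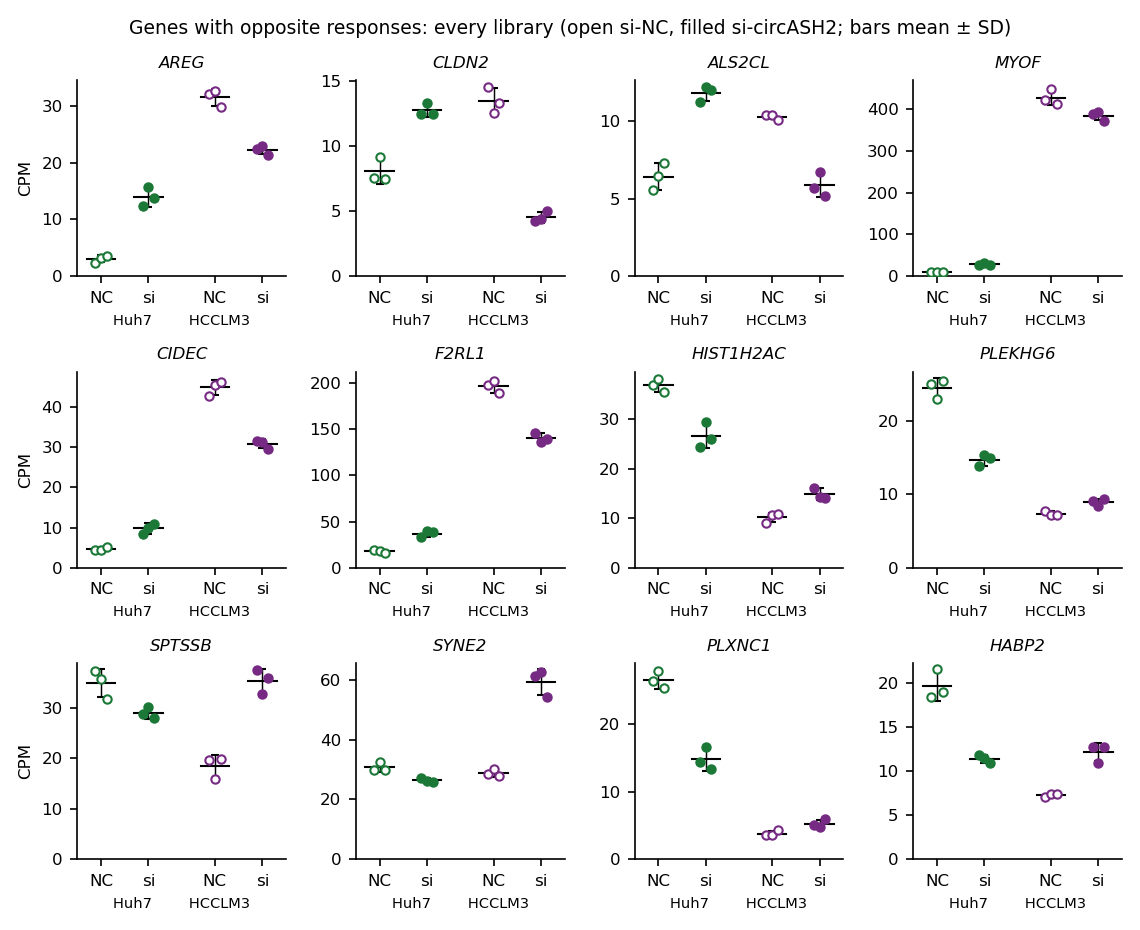
Level in CPM (vertical axis, from 0, own scale per gene) of the 12 named genes with opposite responses in each of the 12 libraries, among them AREG (difference -2.69) and HABP2 (difference 1.52). Open circles are si-NC, filled circles si-circASH2, green Huh7, purple HCCLM3, with mean ± SD of 3 libraries as bars: in each panel 1 line goes up and the other down with no overlap within a line. The genes were picked for calls in both lines, so this was close to given by the choice.

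All 25 mitosis and G2/M genes of the list were members, and all 25 differed with HCCLM3 higher, against 12.7% of all members. In Huh7 24 of the 25 fell and none rose, with a median log2 fold change of -0.41. In HCCLM3 13 rose and none fell, with a median of 0.11, and the count of risers was 8 without HCCLM3 si-NC replicate 1. The difference had a median of 0.54 over the list and -0.01 over all members, and 12 genes passed with opposite signs. CENPF, a kinetochore protein, went from 202, 201 and 198 CPM to 154, 172 and 162 CPM in Huh7 and from 211, 220 and 210 CPM to 312, 314 and 282 CPM in HCCLM3. The lines started near each other and ended apart, with a difference of 0.80 ± 0.06 (edgeR adjusted p = 1.9e-09).

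ASPM, a spindle pole protein whose promoter is shown above, fell from 257 to 203 CPM in Huh7 and rose from 220 to 284 CPM in HCCLM3, a difference of 0.71 ± 0.06. TOP2A, the topoisomerase that untangles sister chromatids, had a difference of 0.48, with 487 to 407 CPM in Huh7 and 319 to 373 CPM in HCCLM3. The spindle checkpoint genes MAD2L1 and BUB1, the kinesin KIF23 and the cyclin CCNB2 also passed in both lines with opposite signs, with differences of 0.63, 0.55, 0.65 and 0.59. CDK1, CCNB1, CCNA2, PLK1 and the transcription factor FOXM1 fell in Huh7 and did not pass in HCCLM3. FOXM1 was at 218, 214 and 197 CPM in Huh7 si-NC and 140, 142 and 136 CPM with si-circASH2, and at 308, 322 and 315 CPM against 330, 320 and 333 CPM in HCCLM3. Its groups were apart in Huh7 and overlapped in HCCLM3.

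Of the 25 DNA replication genes, all members, 23 differed with HCCLM3 higher, against 12.7% of all members. The others, POLE2 and RFC3, did not pass. In Huh7 24 fell, with a median of -0.37. In HCCLM3 5 rose and 4 fell, with a median of 0.04, so that the HCCLM3 arm was mixed while the Huh7 arm was not. MCM2, a subunit of the replicative helicase, fell from 260, 265 and 249 CPM to 205, 199 and 195 CPM in Huh7 and rose from 153, 150 and 148 CPM to 187, 189 and 192 CPM in HCCLM3. Its si-circASH2 levels in the lines nearly met, with a difference of 0.70 ± 0.05 (edgeR adjusted p = 6.4e-10). E2F1, the factor that drives the G1 to S transition, fell in Huh7 from 76.7 to 43.9 CPM and was at 49.0 and 45.8 CPM in HCCLM3, where it did not pass. PCNA, the sliding clamp, and MCM7 likewise fell in Huh7 alone, by 0.51 and 0.43 on the log2 scale. RRM2, MCM6, CDC6 and GINS1 fell in both lines, and more in Huh7.

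**Figure D3:**
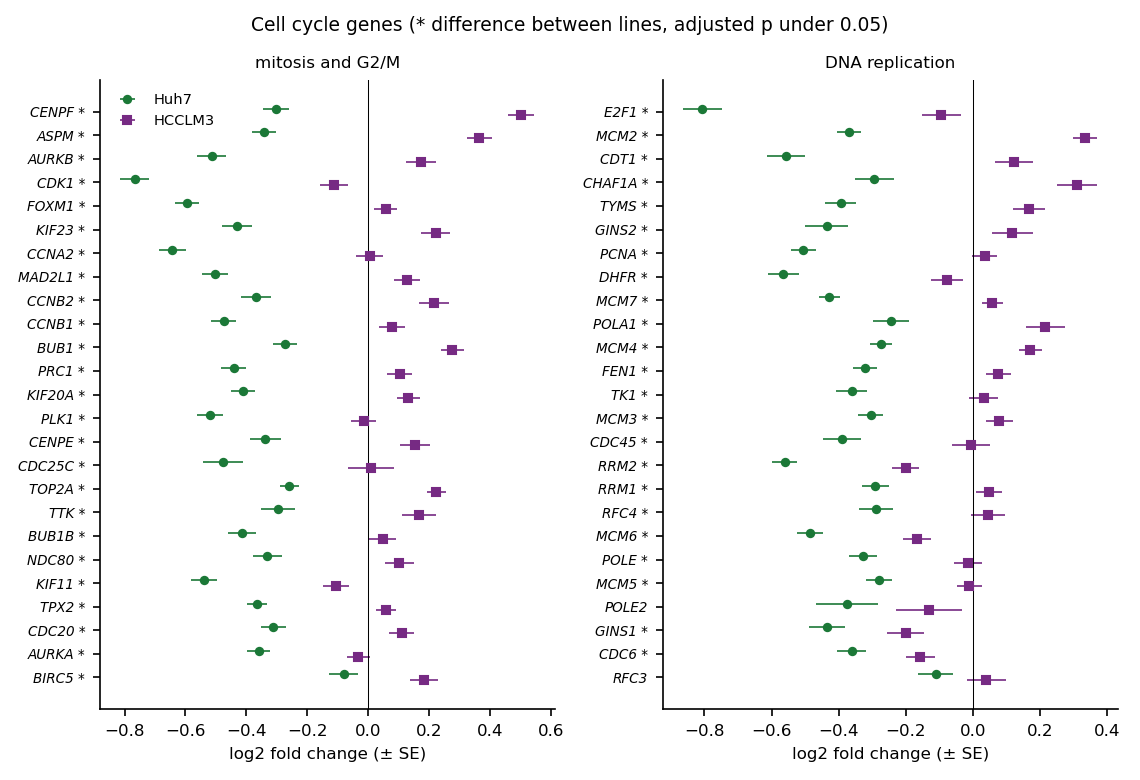
Log2 fold change ± SE (horizontal axis, si-circASH2 against si-NC) of the 25 mitosis and G2/M and the 25 DNA replication genes, Huh7 as green circles and HCCLM3 as purple squares, ordered by the difference, with a star where the difference passed. Every green circle lies left of the purple square of its gene, and CENPF, at the top of its panel, has the highest HCCLM3 value of its list, 0.50.

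The promoter letters were compared with these groups as a description. RefSeq promoters of 300 bases (250 before to 50 after the start) were found for 9303 of the 11218 members with a symbol. TTTGAA, on either strand, was in 13 of the 20 mitosis promoters found, against 15.4% of the promoters of all 27305 genes and 9.57% of those of members. The 4 E2F sites were in 15 of the 22 DNA replication promoters found, against 3.33% of all genes and 5.69% of members. CCAAT was in 16 of the 20 mitosis promoters and in 35.7% of all. It was as frequent in lists with more members Huh7 higher. These were cholesterol synthesis and uptake (15 of 18 promoters) and ER chaperones and unfolded protein response (19 of 23). Of the 3432 members with CCAAT, 15.0% differed with HCCLM3 higher and 12.9% with Huh7 higher. Of the 890 members with TTTGAA, 20.1% differed with HCCLM3 higher and 12.8% with Huh7 higher. Of the 529 with an E2F site, 19.3% and 9.26% did, while over all members with a promoter the shares were 13% and 14.7%. For TGACTCA, the AP-1 site, the shares turned around: 9.06% of its 265 holders differed with HCCLM3 higher and 21.5% with Huh7 higher. Few promoters of the lists with more members Huh7 higher held it: 0 of 10 for ERK output, 1 of 17 for immediate early genes and 1 of 17 for NF-kB. For integrins it was 2 of 18 and for actin 3 of 33, against 4.92% of all genes and 2.85% of members. The letters match a site by sequence alone, and no factor was measured at these promoters.

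Among G1 cyclins, CDKs and CDK inhibitors 6 of 17 members differed with HCCLM3 higher and 6 with Huh7 higher (3 with limma on log2(FPKM + 1)). Over all members the shares were 12.7% and 14.7%. The CDK inhibitors were split: CDKN1A, CDKN2A and CDKN2B had Huh7 higher, while CDKN1B, which fell in both lines, and CDKN1C, which fell in Huh7 alone, had HCCLM3 higher by 0.27 and 0.62. CDKN1A, which encodes p21 (chr6:36676460-36687339), went from 13.9, 15.1 and 15.6 CPM to 23.5, 24.0 and 25.7 CPM in Huh7 and from 128, 125 and 123 CPM to 69.1, 72.5 and 79.9 CPM in HCCLM3. It rose in the line that had little of it and fell in the line that had much, with a difference of -1.48 ± 0.08 (edgeR adjusted p = 7.5e-12). CDKN2B, which encodes p15 (chr9:22002903-22009363), rose from 24.0, 23.8 and 24.8 CPM to 72.0, 70.6 and 70.8 CPM in Huh7. In HCCLM3 it started at the same level, 24.0, 23.6 and 24.1 CPM, and was at 25.6, 26.7 and 25.0 CPM with si-circASH2, a change of 0.11 that did not pass (edgeR adjusted p = 0.13). Its groups did not overlap in either line, but the shift was of another order in Huh7. CDC25A, the phosphatase that activates CDK2, and RBL1, a pocket protein, fell in Huh7 alone, with differences of 0.70 and 0.56.

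CCND1, cyclin D1, was called in the same direction in both lines. It fell from 517, 510 and 495 CPM to 169, 164 and 172 CPM in Huh7 and from 441, 450 and 442 CPM to 111, 117 and 115 CPM in HCCLM3. As a fold change the HCCLM3 fall was larger, -1.96 ± 0.03 against -1.59 ± 0.03, a difference of -0.37 ± 0.05 (edgeR adjusted p = 3.3e-06). In CPM the Huh7 loss was the larger one, -339 against -330. TPM4, the actin-binding tropomyosin 4 (chr19:16067021-16103005), showed the same split between scales. It rose from 133, 139 and 145 CPM to 363, 388 and 370 CPM in Huh7 and from 296, 309 and 306 CPM to 620, 644 and 587 CPM in HCCLM3. The fold change was larger in Huh7, 1.43 ± 0.04 against 1.02 ± 0.04 (difference -0.40 ± 0.05, edgeR adjusted p = 8.1e-06), and the gain in CPM was larger in HCCLM3, 313 against 235. ASH2L fell in both lines, by 0.19 and 0.24 on the log2 scale, and its difference did not pass (edgeR adjusted p = 0.74). Linear and circular ASH2L RNA cannot be told apart in these counts.

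Genes of ERK output and feedback stood on the other side. Of 18 members 12 differed with Huh7 higher and none with HCCLM3 higher, against 14.7% of all members with Huh7 higher. In HCCLM3 12 fell and none rose, with a median of -0.33, and in Huh7 8 rose and 2 fell, with a median of 0.05. DUSP6, the phosphatase that removes the activating phosphates from ERK, went from 167, 160 and 173 CPM to 219, 213 and 226 CPM in Huh7 and from 155, 155 and 152 CPM to 113, 108 and 111 CPM in HCCLM3. The lines started near each other and ended apart with no overlap, with a difference of -0.87 ± 0.05 (edgeR adjusted p = 5.7e-11). The receptor kinase EPHA2, the feedback inhibitor SPRY4 and the ERK-induced gene PHLDA1 also passed in both lines with opposite signs, with differences of -0.84, -0.84 and -0.85. DUSP5, SPRED1 and the AP-1 subunit FOSL1 did the same. EGR1, an immediate early transcription factor, was at 26.2, 27.2 and 26.6 CPM in Huh7 si-NC and 27.7, 24.7 and 28.1 CPM with si-circASH2, and fell in HCCLM3 from 35.5, 37.1 and 33.1 CPM to 19.5, 19.6 and 17.6 CPM. It thus fell in HCCLM3 alone. The other 6 members, MYC, ETV1, ETV4, ETV5, SPRY1 and SPRY2, had no difference called.

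Upstream of ERK, 6 of 11 members among the EGF receptor ligands and receptors differed, against 27.4% of all members. Next to AREG, the ligand EGF rose in Huh7 from 25.2, 26.0 and 24.5 CPM to 36.2, 35.7 and 36.1 CPM and fell in HCCLM3 from 11.2, 10.2 and 11.2 CPM to 8.24, 7.56 and 8.63 CPM, a difference of -0.92 ± 0.10. The ligands HBEGF and NRG1 rose in Huh7 and did not pass in HCCLM3. ERBB3, the receptor partner without a strong kinase of its own, did the opposite: it fell in Huh7 from 319, 325 and 323 CPM to 224, 227 and 237 CPM and rose in HCCLM3 from 37.4, 33.1 and 43.5 CPM to 52.6, 46.4 and 52.8 CPM. ERRFI1, a feedback inhibitor of the receptor, fell in both lines, by 0.16 in Huh7 and by 0.70 in HCCLM3 on the log2 scale.

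Integrins and focal adhesion genes shared the direction of the ERK genes. Of 23 members 16 differed with Huh7 higher and none with HCCLM3 higher, against 14.7% and 12.7% of all members. Their median change was 0.17 in Huh7, where 13 rose and 3 fell, and -0.15 in HCCLM3, where 3 rose and 11 fell. ITGA2, the collagen receptor subunit alpha 2 (chr5:52989326-53094779), went from 36.7, 38.8 and 35.6 CPM to 43.2, 44.4 and 45.8 CPM in Huh7 and from 354, 373 and 325 CPM to 185, 179 and 165 CPM in HCCLM3. The HCCLM3 fall was the larger arm, with a difference of -1.26 ± 0.07 (edgeR adjusted p = 5.6e-11). CD44, the hyaluronan receptor, showed the reverse weighting, with a rise of 1.06 ± 0.07 in Huh7 from 7.22, 6.75 and 5.87 CPM to 13.7, 13.9 and 13.8 CPM, and a fall of -0.17 ± 0.04 in HCCLM3 from a mean of 324 CPM. In 4 of 23 alternatives this HCCLM3 fall did not pass. ITGAV and ITGB5, which pair in a vitronectin receptor, had differences of -0.73 and -0.64, each with a rise in Huh7 and a fall in HCCLM3. ITGB1, the common beta subunit, fell in HCCLM3 alone, from 830 to 619 CPM. ITGA6, ITGB4, ITGA1, SRC, ZYX, TNS3 and LPP had no difference called.

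**Figure D4:**
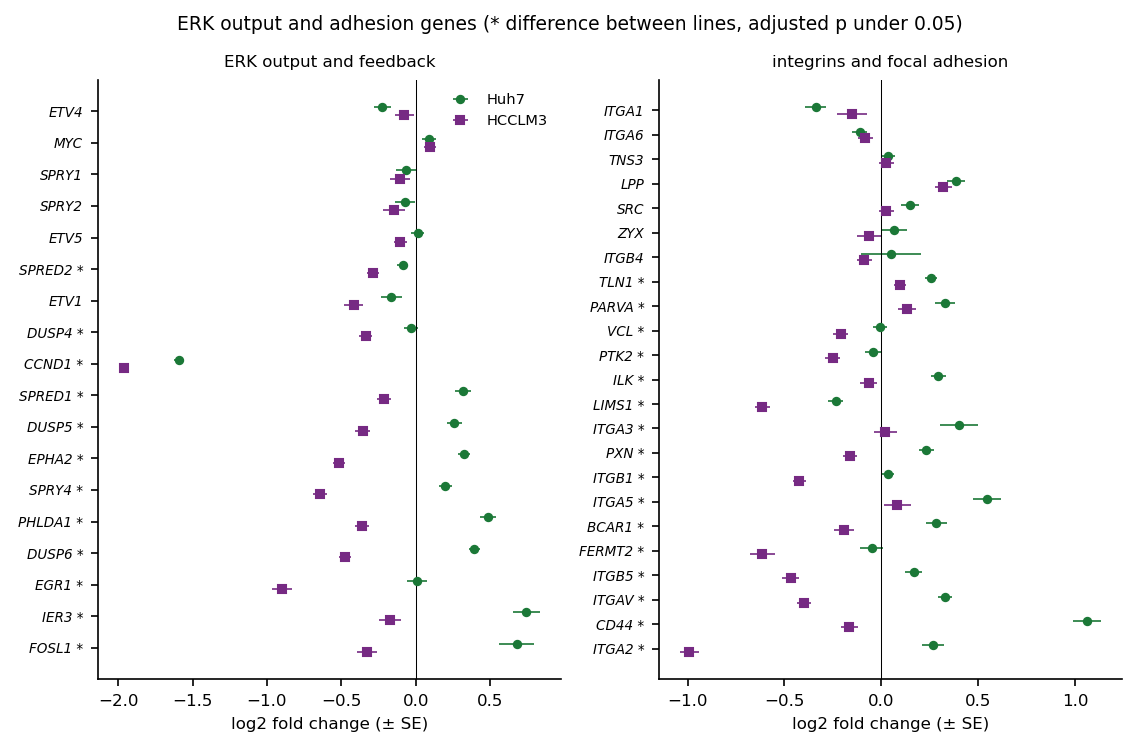
Log2 fold change ± SE (horizontal axis, si-circASH2 against si-NC) of the 18 ERK output and feedback genes and the 23 integrin and focal adhesion genes, Huh7 as green circles and HCCLM3 as purple squares, ordered by the difference, with a star where the difference passed. In the starred genes the green circle lies right of the purple square, and CCND1 is far to the left in both lines.

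The actin cytoskeleton followed the same side with smaller steps, 19 of 38 members with Huh7 higher (12 with limma on FPKM) and 3 with HCCLM3 higher, and a median difference of -0.15. Over all members 14.7% differed with Huh7 higher and 12.7% with HCCLM3 higher, the shares to set beside each list of this paragraph. LIMA1, an actin cross-linker, fell in HCCLM3 from 488, 485 and 462 CPM to 283, 286 and 272 CPM and was at 56.0 and 60.2 CPM in Huh7, where it did not pass. TAGLN, transgelin, moved in opposite directions at low levels, rising in Huh7 from 5.12 to 9.85 CPM and falling in HCCLM3 from 3.25 to 1.62 CPM. MYL12A, a myosin light chain, rose in Huh7 from 279 to 320 CPM and fell in HCCLM3 from 352 to 285.3 CPM. Among mesenchymal and invasion genes 11 of 20 members differed with Huh7 higher. SPARC, a matrix protein, rose in Huh7 from 28.2, 26.8 and 27.5 CPM to 49.1, 50.6 and 49.0 CPM and fell in HCCLM3 from 2.09, 1.93 and 2.32 CPM to 1.39, 0.962 and 1.18 CPM. The single member of that list with HCCLM3 higher was PLAU, the protease urokinase, which rose in HCCLM3 from 30.5, 31.5 and 29.4 CPM to 57.5, 63.0 and 58.4 CPM, while its receptor gene PLAUR fell there from 40.9 to 19.7 CPM. YAP targets had 8 of 17 members with Huh7 higher, among them MYOF and CYR61, and ANKRD1, which rose in both lines.

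Of 20 members of the NF-kB and inflammatory list 10 differed with Huh7 higher and 1 with HCCLM3 higher, against 14.7% and 12.7% of all members. ICAM1, the leukocyte adhesion molecule, rose in Huh7 from 246, 254 and 275 CPM to 318, 323 and 331 CPM and fell in HCCLM3 from 183, 181 and 179 CPM to 128, 129 and 129 CPM. The groups were apart in both lines, with a difference of -0.82 ± 0.05 (edgeR adjusted p = 1.8e-10). NFKB2 and the cytokine IL18 did likewise, with differences of -0.99 and -1.11. The chemokine CXCL5 rose from 25.7 to 52.9 CPM in Huh7 alone, and BIRC3, an inhibitor of apoptosis induced by NF-kB, fell from 81.9 to 29.1 CPM in HCCLM3 alone, being near 1 CPM in Huh7. Of the leukocyte markers, CD68, the only one measured in both lines at 1 CPM, rose in both lines and more in Huh7, from 20.7 to 38.6 CPM there and from 154 to 187 CPM in HCCLM3 (difference -0.61). LYZ, which made up most of the Huh7 sum, was at 375 CPM in si-NC and 312 CPM in si-circASH2. The part of such markers in these results was not tested.

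Cholesterol synthesis and uptake fell in both lines, 16 of 25 members in Huh7 and 20 in HCCLM3. Of the 25, 2 differed with HCCLM3 higher and 11 with Huh7 higher, against 12.7% and 14.7% of all members. In 10 of these 11 the fall was deeper in HCCLM3 (7 genes) or called there alone (3 genes). With limma on FPKM the 11 were 7. Of 26 NRF2 target and glutathione genes 13 differed with Huh7 higher (7 with limma on FPKM), against 14.7% of all members, and 16 fell in HCCLM3. The drug efflux pump ABCC3 and the aldo-keto reductase AKR1B10 rose in Huh7 and fell in HCCLM3, by differences of -1.25 and -1.12. AKR1B10 has a close paralog, and how shared reads were counted is not given in the sources used here.

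Among hepatocyte lists, plasma proteins and transcription factors had more members with HCCLM3 higher, and drug metabolism enzymes were split. Of 15 plasma protein genes measured in both lines, out of 30 listed, 8 differed with HCCLM3 higher, against 12.7% of all members, and 1, ITIH2, with Huh7 higher. The other listed genes stayed under 1 CPM in both HCCLM3 groups. APOA2, among the 8, reached 1 CPM in HCCLM3 only with si-circASH2, the group where it is high. The limit thus lets in genes that rise past it in HCCLM3, and the count describes the members only. Of 16 drug metabolism enzymes 3 differed with HCCLM3 higher and 5 with Huh7 higher, against 12.7% and 14.7% of all members. Their median difference was -0.14 and ran from -0.25 to -0.008 over the alternatives. APOH, apolipoprotein H, rose in HCCLM3 from 43.9, 46.1 and 47.9 CPM to 75.2, 76.2 and 76.3 CPM and was at 76.7 and 71.9 CPM in Huh7, where it did not pass. APOA2 is a case of scale: it rose in HCCLM3 from 0.505, 0.350 and 0.294 CPM, where 3 counts are 0.0981 to 0.105 CPM, to 4.31, 5.37 and 4.63 CPM, and in Huh7 by 656 CPM from a mean of 1792 CPM. AFP, alpha-fetoprotein, fell in Huh7 and rose in HCCLM3, but its HCCLM3 levels stayed between 2.76 and 5.04 CPM. Of 21 transcription factors and nuclear receptors of the hepatocyte, 7 differed with HCCLM3 higher and 2 with Huh7 higher, and the 7 were 4 with limma on log2(FPKM + 0.1). GATA6 and ONECUT2 fell in Huh7 alone, with differences of 0.74 and 0.60, and PROX1 fell in Huh7 and rose in HCCLM3, with a difference of 0.63. HNF4A fell in Huh7 from 242 to 192 CPM, and its difference of 0.28 did not pass in limma on log2(FPKM + 1) (adjusted p = 0.094).

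Ribosomal protein genes made small but one-sided steps. Of 43 members 19 differed with HCCLM3 higher and none with Huh7 higher, against 12.7% and 14.7% of all members. The median difference was 0.15, while 23 fell in Huh7 and 6 rose and 1 fell in HCCLM3. RPLP0, of the ribosomal stalk, fell in Huh7 from 1543 to 1359 CPM and rose in HCCLM3 from 1459 to 1577 CPM, a difference of 0.30 ± 0.04. The count with HCCLM3 higher was 11 without HCCLM3 si-NC replicate 1, and that of falls in Huh7 was 15 without Huh7 si-circASH2 replicate 3. Many of these genes have processed pseudogenes that could share reads. The 13 genes encoded in mitochondrial DNA had no difference called in either direction.

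**Figure D5:**
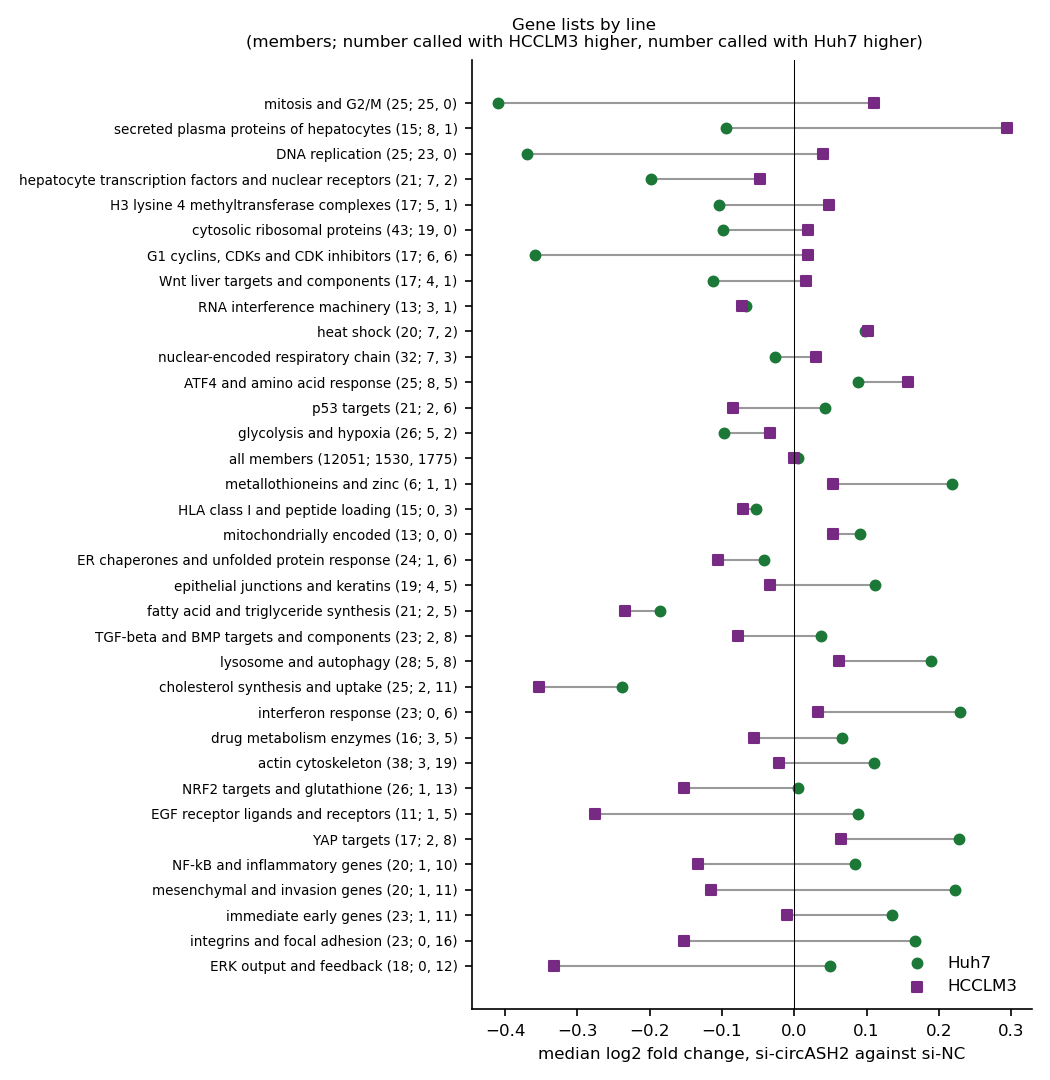
Median log2 fold change (horizontal axis, si-circASH2 against si-NC) of the members of each gene list in Huh7 (green circles) and HCCLM3 (purple squares), ordered by the median difference, with the numbers of members and of differing members per direction beside the name. Mitosis lies at the top with Huh7 near -0.41, plasma proteins come next, and DNA replication follows with Huh7 near -0.37. ERK output lies at the bottom with HCCLM3 at -0.33, and all members together lie at 0.

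Among genes called in HCCLM3 alone, the named falls were UPB1, SUSD2, RAB37 and HYAL1 and the named rises KLF2, ENPP2, PRAP1 and NPTXR. UPB1, an enzyme of pyrimidine breakdown, fell in HCCLM3 from 16.9, 15.96 and 16.9 CPM to 6.58, 6.80 and 6.48 CPM. In Huh7 it was at 11.4, 11.1 and 11.4 CPM and then at 12.9, 11.1 and 12.1 CPM, with overlapping groups, and the difference was -1.42 ± 0.12 (edgeR adjusted p = 1.2e-08). RAB37, a Rab GTPase of secretory vesicles, was near 18 CPM in the si-NC libraries of both lines and fell to 7.77, 7.90 and 8.46 CPM in HCCLM3. KLF2, a transcription factor of the Krüppel-like family, rose in HCCLM3 from 6.02, 5.99 and 6.51 CPM to 15.5, 15.6 and 16.02 CPM, reaching the Huh7 level of 15.2, 15.4 and 14.8 CPM. ENPP2, which encodes the lysophospholipase autotaxin, rose in HCCLM3 from 8.07, 4.90 and 8.11 CPM to 16.6, 17.3 and 17.7 CPM. GPNMB, a glycoprotein of lysosomes, had a larger rise there, from 12.2, 15.3 and 13.9 CPM to 54.6, 54.4 and 48.5 CPM, and was near 2 CPM in Huh7.

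Among genes called in Huh7 alone, the named falls were ITPKA, RUNX1, BCL2L11 and TMEM200B and the named rises QPCT, CDKN2B, CCRL2 and CSF1. RUNX1, a transcription factor, fell from 40.3, 38.7 and 36.4 CPM to 20.2, 20.3 and 21.6 CPM in Huh7 and was at 33.9, 36.5 and 36.2 CPM and then 34.9, 32.9 and 33.1 CPM in HCCLM3. BCL2L11, the cell death inducer BIM, fell from 45.2, 44.2 and 41.7 CPM to 26.5, 25.5 and 28.6 CPM in Huh7 and stayed between 23.9 and 28.1 CPM in HCCLM3. CSF1, the macrophage growth factor, rose from 47.1, 46.2 and 51.3 CPM to 118, 109 and 109 CPM in Huh7, close to the HCCLM3 level of 114 to 124 CPM. CCRL2, a chemerin receptor, and QPCT, glutaminyl cyclase, rose by 1.29 and 1.30 on the log2 scale. TMEM200B was the weakest of these (adjusted p = 0.020 in edgeR), and its call was lost without any of 5 single libraries (adjusted p 0.058 to 0.064 in edgeR): Huh7 si-NC replicate 1 or 2, Huh7 si-circASH2 replicate 2, or replicate 3 of either HCCLM3 group.

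Among genes that moved the same way by different amounts and reached 5 CPM in a group of each line, ARL2 and CYR61 are described first. ARL2, a small GTPase of tubulin folding, fell in Huh7 from 28.7, 28.98 and 27.0 CPM to 7.72, 7.12 and 6.91 CPM and in HCCLM3 from 46.7, 43.6 and 46.6 CPM to 32.3, 27.8 and 34.9 CPM. The Huh7 fold was the deeper, -1.96 ± 0.08 against -0.53 ± 0.07 (difference 1.43, edgeR adjusted p = 1.8e-09). CYR61, a matrix protein induced by YAP, rose in Huh7 from 15.3, 17.0 and 14.9 CPM to 51.6, 59.5 and 52.0 CPM and in HCCLM3 from 12.2, 14.2 and 12.7 CPM to 16.4, 15.5 and 17.3 CPM. RDH10, a retinol dehydrogenase, and TMEM87B fell more in HCCLM3, by differences of -0.81 and -0.80, and ARHGAP21 and THSD7A rose more there, by 0.71 and 0.69. PMP22, a myelin protein, and TRIP13, a checkpoint ATPase, fell more in Huh7, by 0.76 and 0.75. In this class the call of 3 named genes depended on the FPKM scale or on single libraries. FBN1 had a difference of -1.09 that turned to 0.02 with limma on log2(FPKM + 1) (adjusted p = 0.89). With limma on log2(FPKM + 0.1) FBN1 kept its call. PRSS23 had a difference of -0.87 that did not pass with limma on log2(FPKM + 1) (adjusted p = 0.27). MT2A had one of 1.0 that did not pass without any of 5 single libraries (adjusted p 0.056 to 0.082 in edgeR): Huh7 si-NC replicate 1 or 2, Huh7 si-circASH2 replicate 3, or HCCLM3 si-NC replicate 2 or 3. The genes that differed while passing in neither line, COMMD1, COLCA2, ARMC7 and NEK8, had differences between 0.53 and 0.61 in size, and each lost its call when a single library was left out.

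Levels were also compared between the lines. By the mean log2 level over both treatments (CPM + 0.1), 13% of the 1775 members with Huh7 higher (231) were over 4 fold lower in Huh7 than in HCCLM3, against 4.42% of the 8746 members with no difference called. Of the 1530 members with HCCLM3 higher, 7.32% (112) were over 4 fold lower in HCCLM3, against 4.60% of those with no difference called. MYOF, CD44, TIMP1, QPCT and AKR1B10 are examples on the Huh7 side and PLXNC1 on the HCCLM3 side. The levels enter the fold changes, so these shares describe the members and carry no test.

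Short letters in 3′ UTRs, known from earlier results of these data, were set against the difference as well. TTATACC or TATACCA stood in the GENCODE 29 3′ UTR of 1634 of 10932 members with one, and TCGGAGAA in that of 96. Windows of 30 bases are shown for genes named above, with the match in capitals, because these genes carry the letters and responded unequally in the lines (GRCh38, strand of the gene).
CYR61, chr1:85583837-85583866, plus strand: aatgattgcttTTATACCttcagtagagaa
RUNX1, chr21:34791748-34791777, minus strand: aaagaaagattTTATACCcttgacttaact
BCL2L11, chr2:111164861-111164890, plus strand: gcctgcattgaTATACCAgtcccatttgta
TMEM87B, chr2:112117090-112117119, plus strand: tcaaccatgttTTATACCttatttcgttac
PMP22, chr17:15229813-15229842, minus strand: attttctgattTTATACCAactgtgtggac
TRIP13, chr5:917633-917662, plus strand: ctatttctacaTTATACCAactgagaaaaa
PRSS23, chr11:86810211-86810240, plus strand: ttctaaatgtaTCGGAGAAaaaatcaaatg
TPM4, chr19:16101482-16101511, plus strand: aatattttgtaTCGGAGAAgctttgagcac
CYR61 carries the first pair and rose in both lines, more in Huh7. RUNX1 and BCL2L11 fell in Huh7 alone, TMEM87B fell more in HCCLM3, and PMP22 and TRIP13 fell more in Huh7. PRSS23 and TPM4, with the other letters, rose in both lines and more in Huh7. Over all 1634 carriers of the first pair, 36.3% fell in Huh7 and 35.5% in HCCLM3, against 18.4% and 17.9% of members without it. Of these carriers 12.5% differed with HCCLM3 higher and 15.4% with Huh7 higher, against 13.5% and 15.1% of the rest. Of the 353 carriers that fell in both lines, 274 had no difference called. Of the 96 carriers of TCGGAGAA, 45.8% rose in Huh7 and 40.6% in HCCLM3, against 20.1% and 19.0% of members without it. Of these 96, 15 (15.6%) differed with HCCLM3 higher and 18 (18.8%) with Huh7 higher, against 13.3% and 15.1% of the rest. The fall or rise of carriers was thus seen at a like rate in both lines. For the first pair the share of differing genes was near that of the other members. For TCGGAGAA it was somewhat higher in both directions, in a set of only 96 genes.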

How the data were processed

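RNA-seq of 12 libraries (4 groups of 3) was analysed from 1 table of the whole series. The authors deposited read counts per feature and FPKM values side by side, per the file headers. Per the labels' protocols, RNA was taken with an RNeasy kit and libraries with a SMARTER mRNA-Seq kit. The submitters' processing notes list hg38 next to the mouse builds GRCm38 and mm10, with no role for any. No aligner, counter, strand setting or annotation is named in the sources used here. The deposited counts went into edgeR 4.0.16 (R 4.3.3): features were kept by filterByExpr with a minimum count of 10, scaled by TMM, and tested with the robust quasi-likelihood F test on 1 coefficient per group, with Benjamini-Hochberg adjustment over all 16946 features. CPM are TMM-scaled. Calls take an adjusted p under 0.05. A floor of 3 counts equals 0.0981 to 0.105 CPM. Log2 fold changes and SE come from this fit. Alternatives were RLE, upper quartile and no scaling, DESeq2 1.42.0, limma 3.58.1 with voom, limma on the deposited FPKM on the log2(FPKM + 1) and log2(FPKM + 0.1) scale, no filter, a member minimum of 5 CPM, a size limit, replicate blocks and leaving out each library. On simulated data of the difference (16746 features), 100 genes per size were changed in HCCLM3 si-circASH2 alone. No other gene was given a knockdown response, and the spread was that fitted to these libraries. There 62% of changes of 0.5 and 89% of changes of 1 (log2) were recovered, with 3.82% of the calls false. The differing members had a median size of 0.37 and both lines responded broadly, so these rates do not carry over to them. Libraries of 1 group differed beyond counting noise (chi-square per degree of freedom 3.76 to 8.06), so none was counted as 1 library sequenced again. Separate preparations from 1 culture can also spread beyond counting noise, so technical repeats of that kind are not excluded. No pairing by replicate number was seen within a line: same-numbered libraries had correlations of -0.106 to 0.0116. These are correlations of deviations from means of 3 libraries, which are tied to each other, so they cannot exclude pairing. Same-numbered libraries of the 2 lines were not compared.

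Named genes were those with the largest differences per class of call with at least 5 CPM in a group of each line, up to 4 per gene list by smallest p, and TPM4, CCND1 and ASH2L. Other genes of the lists are named with their values known. The members, lists and letters were chosen with earlier results of these data known, and list counts are no independent evidence. Promoters are from RefSeq, gene positions and 3′ UTRs from GENCODE 29. The bases after the start were found in a transcript of the gene for 83.5% of the matched promoters. Some results are not reported here.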

Additional observations from a re-analysis of the deposited data

Results flagged for a closer look

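These results were set apart because the effect of the same contrast differed between the lines by the edgeR test of that difference. The counts are 3305 members whose response differed and 559 called with opposite signs. By list they are 25 mitosis and G2/M genes and 23 DNA replication genes with HCCLM3 higher, and 16 integrin and focal adhesion genes and 12 ERK output genes with Huh7 higher. The named genes with opposite signs had differences (HCCLM3 minus Huh7, log2) of -2.69 for AREG, -2.24 for CLDN2, -1.69 for ALS2CL, -1.69 for MYOF, -1.59 for CIDEC and -1.55 for F2RL1. With HCCLM3 higher they were 1.01 for HIST1H2AC, 1.02 for PLEKHG6, 1.21 for SPTSSB, 1.27 for SYNE2, 1.32 for PLXNC1 and 1.52 for HABP2. All other genes described in the report as differing passed the same test. Groups of 3 libraries were not searched for a library that stands apart.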

How the results depend on the processing

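The count of 3305 differing members ran from 2475 to 3347 over the alternatives in scaling, tool, filter, unit and block, and from 2842 to 3134 when 1 library was left out. The share with HCCLM3 higher ran from 43.2% to 52.1%. A size limit of 1 on the log2 difference left 181, and 64 of the 559 with opposite signs. The latter count was 352 with limma on log2(FPKM + 0.1), 331 on log2(FPKM + 1) with all features above 0, and 442 to 563 with 1 library left out. With 1 library left out, 4072 to 4819 members responded in Huh7 and 3883 to 4758 in HCCLM3. A replicate block within each line gave 3293 differing members and a block shared over the lines 3246. As no pairing by number was shown, these counts say nothing of weaker effects. Of the 164 named genes with a difference called, 143 kept the call in every alternative. FBN1 turned to 0.023 with limma on log2(FPKM + 1), with the low-value filter and without it. It kept its call with limma on log2(FPKM + 0.1), and the cause was not tested. Depth limits genes near 1 CPM, where 3 counts are about 0.1 CPM and folds rest on few reads.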

Other observations

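Most of the gene lists had shares of differing members over the 27.4% of all members, so such a share does not set a group apart. Some of the lists not described above are given here, beside shares over all members of 12.7% with HCCLM3 higher and 14.7% with Huh7 higher. Of 23 immediate early genes 11 differed with Huh7 higher and 1, KLF2, with HCCLM3 higher. KLF4, a transcription factor, rose in Huh7 from 3.06 to 4.35 CPM and fell in HCCLM3 from 61.1 to 52.9 CPM, and JUNB, an AP-1 subunit, fell in HCCLM3 alone, from 52.5 to 35.7 CPM. Of 28 lysosome and autophagy genes 5 differed with HCCLM3 higher and 8 with Huh7 higher. The cathepsins CTSB and CTSD rose in both lines and more in HCCLM3, by 0.21 and 0.25. The autophagy receptor SQSTM1 fell in HCCLM3 from 2666, 2617 and 2577 CPM to 1882, 1871 and 1955 CPM (difference -0.55). In Huh7 it was at 883, 864 and 817 CPM and then at 913, 940 and 877 CPM, with overlapping groups.

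Of 25 members of the ATF4 and amino acid response 8 differed with HCCLM3 higher and 5 with Huh7 higher, the latter 3 with limma on log2(FPKM + 0.1). Over all members the shares were 12.7% and 14.7%. PHGDH, the first enzyme of serine synthesis, rose in HCCLM3 from 14.0, 12.7 and 15.1 CPM to 18.8, 17.3 and 16.02 CPM and did not pass in Huh7, while TRIB3, a pseudokinase of the same response, rose in Huh7 alone. Among heat shock genes 7 of 20 differed with HCCLM3 higher, against 12.7% of all members. HSPB1 rose in both lines and more in HCCLM3 (difference 0.35), and HSPB8 rose in Huh7 alone from 33.6 to 58.9 CPM. In the H3 lysine 4 methyltransferase complexes, which ASH2L serves as a subunit, HCFC1 fell in Huh7 and rose in HCCLM3 (difference 0.30), and KDM6A fell in HCCLM3 alone from 85.6, 87.1 and 88.0 CPM to 70.0, 73.2 and 74.1 CPM.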
